A study of Homo sapiens with 15 samples.

Results

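Human genes often end in more than 1 place. The 1520 regions described here are 3' end regions that compete within a gene: each held at least 500 reads summed over the 12 alkylated libraries and at least 20% of its gene's reads, in a gene where at least 1 other region did the same. They came from 737 of the 19050 gene names that stand for a single gene, and from 68625 listed regions in all. Of these genes, 691 had 2 such regions and 46 had 3. The members were chosen by these read counts, which are given as a description. The choice used neither the phase nor the conversions of a read. A region could still reach 20% through a phase in which it was high, so the counts of calls between phases are not free of the choice. The alkylated libraries, whose reads chose the members, are 1 side of the comparison with No_alkylation, so those values are a description too.

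When RNA polymerase has passed a poly(A) signal, the cleavage and polyadenylation complex cuts the transcript and a poly(A) tail is added. A gene with several such signals yields mRNAs that differ in their 3' untranslated region or, where the upstream end lies in an intron or an earlier exon, in their coding part. Untranslated regions carry binding sites for microRNAs and RNA-binding proteins, and proliferating cells are known for a wide use of upstream ends.

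All cells were U2OS, a human osteosarcoma line. Asynchronously growing cultures took up the nucleoside analogues 4-thiouridine, which enters new RNA, and EdU, which enters replicating DNA, for 45 minutes. The cells were fixed with glyoxal and methanol and sorted by EdU and DNA content into G1, Early_S, Late_S and G2 (written G2/M in the protocol), so that the phases were separated by sorting although the series title speaks of synchronised cells. RNA was alkylated, which makes 4-thiouridine read as a T-to-C change, and 500 ng of it was turned into QuantSeq libraries, which read the 3' ends of polyadenylated RNA. Each phase had 3 libraries. Another group of 3, No_alkylation, went without the alkylation step, and the labels do not say which cells it holds. Nothing in the labels says that replicates came from separate cultures, so p-values measure only the spread between these libraries, which may be technical.

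The libraries held 16096695 to 21803972 reads in the listed regions. Reads with a conversion (T>C reads, the RNA made during the pulse) made up 22.3% ± 0.740 of reads in G1 (SD, n = 3) and 18.4% ± 0.516 in Early_S. They fell to 10.0% ± 0.0870 for Late_S and 10.1% ± 0.336 for G2, and the No_alkylation libraries held 1.01% ± 0.0179. Late_S and G2 thus lay level, below Early_S and G1. The mesenchymal markers were abundant (VIM, 2246 to 3651 CPM, normalised counts scaled to a common library size; SPARC, 605 to 793; COL1A1, 1224 to 2225). The bone marker RUNX2 was low, at 0.754 to 13.8 CPM, in the range of the epithelial markers (EPCAM, 4.06 to 14.6; CDH1, 0 to 9.27; ESRP1, 0 to 0.0621), and blood markers were at or near 0 (PTPRC, 0 to 0.172; CD3E, 0; HBB, 0 to 0.172).

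The competing regions were usually far apart. The median distance between neighbouring members was 10641 bases (quartiles 2918.5 and 31238.5), and 26 pairs lay under 100 bases apart. The most downstream member ended within 100 bases of the RefSeq end of its gene in 552 of 732 matched genes, against 17 of 732 for the most upstream member. Upstream members were short (median 287 bases) and downstream members long (1415 bases), against 148 bases over all listed regions. The downstream region held more reads in 470 pairs and the upstream region in 221. Together the members of a gene held a median of 95.9% of its reads. The counts show reads in annotated end regions, and whether each read began at a poly(A) tail was not tested. More than 10% of reads were multimapped in 97 regions of 70 genes, and 268 regions overlapped another RefSeq gene.

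At the borders of the rule, members with few reads were in CAPN10 (500 reads, 21.3% of the gene), ABCB8 (501 reads, 43.7%) and PCBD2 (502 reads, 23.3%), and regions of PIGL (498 reads) and DENND3 (490 reads) fell just outside. By share, regions of FAM133B (20.022%) and LUC7L2 (20.03%) were just inside, and those of UBE3B (19.962%), CCDC186 (19.954%) and ERLIN2 (19.919%) just outside. Because the share was taken over all phases together, 229 members were under 20% in at least 1 phase.

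Usage, the percentage of a gene's reads that fell in a region, shifted between phases in a small set of genes, among which CSTF3 had the smallest adjusted p by edgeR. CSTF3 encodes the CstF-77 subunit of the cleavage stimulation factor, and its own transcript is known to be cut early at a poly(A) site inside an intron. Its upstream region (chr11:33140966-33141878, minus strand, 56382 bases before the RefSeq gene end; coordinates are hg38, counted from 1) took 69.7%, 69.0% and 73.0% of the gene's reads in the 3 G1 libraries and 75.9%, 80.2% and 82.5% in Early_S. It took 45.6%, 43.3% and 37.5% in Late_S and 41.3%, 39.9% and 55.4% in G2. Every G1 and Early_S library was above every Late_S and G2 library, and the region at the gene's end (chr11:33084584-33085086) mirrored this at 27.0% ± 2.04 for G1, 18.0% ± 1.44 for Early_S, 55.5% ± 5.72 for Late_S and 48.4% ± 10.8 for G2 (SD, n = 3).

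CSTF3 passed the test across the 4 phases for both regions (edgeR quasi-likelihood F-test, Benjamini-Hochberg adjusted p = 0.000172 upstream and 0.000436 downstream). It was also the only gene with members called between Early_S and Late_S. From Early_S to Late_S the ratio of upstream reads to the gene's other reads fell by 2.43 on the log2 scale (SE 0.27, edgeR adjusted p = 0.000183). The summed level of the gene ran from 43.4 ± 6.29 CPM in Early_S to 56.1 ± 9.64 in Late_S and did not pass the test across phases (edgeR adjusted p = 0.218). The usage call held in each of the 12 fits that left out 1 library (adjusted p at most 0.0019). With limma the upstream region missed the threshold (limma adjusted p = 0.0544), and the 2 members that limma called were in HERC4 (0.0238) and DDX31 (0.038).

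**Figure D1:**
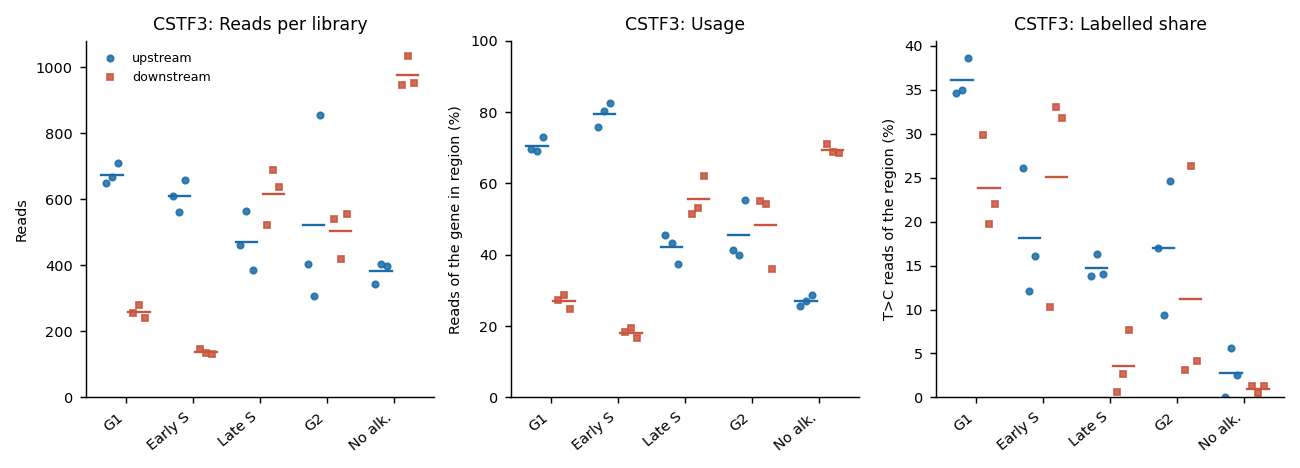
Reads, usage (%) and labelled share (%, T>C reads among reads) of the CSTF3 upstream region (blue circles) and downstream region (red squares) in each of the 15 libraries, with a bar at the mean of each group. Upstream usage was 69.0% to 82.5% in the G1 and Early_S libraries and 37.5% to 55.4% in the Late_S and G2 libraries.

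Among all members, 25 regions of 15 genes changed in usage across the phases (10 upstream and 15 downstream regions), 1.64% of the 1520, against 0.284% of the 10562 regions tested in genes with several regions. The 2 regions of a pair are complementary, so a call in both is 1 observation. At an unadjusted p under 0.05 there were 346 members, against 9.02% of all regions. This count depends strongly on how the spread was modelled. The edgeR default, with the dispersion trend along average abundance, was run first and called 0 members. The trend along the smaller of the region and the rest was put in its place after that count had been seen, because the default recovered almost none of the changes put into simulated counts. The trend used here recovered most of the larger of these changes and a minority of the smaller ones, so a gene that was not called may still have changed. In the simulated counts the spread of each region followed its own mean reads, which is nearer to the trend used here than to the default. The simulation therefore cannot decide which trend is right for the real data. DESeq2 called 119 members and limma 2. Minimums of 50, 100 and 200 reads in the region and in the rest were also chosen after the data were seen. They gave 62 members (4.26%, against 1.61% of all regions at that minimum), 93 of 1149 (8.09%, against 4.4%) and 75 (9.60%, against 5.69%). In relative terms members and all regions thus lay closer here than at the main minimum, a mean of 10 reads per library. The parts of read depth and of the choice of members in the excess among members were not tested.

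HERC4, which encodes a HECT-type E3 ubiquitin ligase, had the other call that every leave-one-out fit kept. Its upstream region (chr10:68067689-68070492, minus strand), 144549 bases away from the end region, took 69.8%, 70.1% and 68.8% of reads in G1 and 51.8%, 47.8% and 41.5% in Early_S. It then took 27.7%, 23.7% and 33.5% in Late_S and 27.9%, 27.7% and 22.1% in G2. The G1, Early_S and later libraries did not overlap, while Late_S and G2 did. The G1 to G2 difference was 2.72 on the log2 ratio scale (SE 0.34, edgeR adjusted p = 0.00103), and the summed level of the gene did not pass across phases (adjusted p = 0.228).

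Other genes moved the same way by smaller steps. TROAP encodes a spindle-associated protein, and its upstream region (chr12:49323768-49324416) held 44.7%, 41.7% and 55.8% in G1, 37.6%, 51.2% and 36.9% in Early_S, 30.3%, 29.4% and 29.6% in Late_S and 20.5%, 16.3% and 23.7% in G2. G1 and G2 did not overlap, and the gene's summed level went the other way, from 36.7 ± 2.38 CPM in G1 to 94.0 ± 5.64 in G2 (edgeR adjusted p = 9.77e-10). CUL4A, the scaffold of a cullin-RING ubiquitin ligase, had the most reads of these genes: its upstream region (chr13:113229655-113230212) held 56.4%, 52.9% and 55.7% in G1 against 39.4%, 41.1% and 41.0% in Early_S and 35.5%, 41.6% and 28.9% in G2. Its summed level was 183 to 201 CPM in every phase. The edgeR adjusted p across phases was 0.0109 for each of these genes.

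LACTB, a mitochondrial beta-lactamase-like protein, used its upstream region (chr15:63129655-63131471) for 94.3%, 85.3% and 97.2% of reads in G1 and for 76.4%, 56.6% and 66.5% in G2 (adjusted p across phases 0.0109). NLK, a serine/threonine kinase of the Wnt and MAPK pathways, went from 58.6%, 62.4% and 49.1% in G1 to 29.9%, 25.4% and 25.0% in G2 (0.0151) at a region 145710 bases before its other end. For SYNPO, an actin-associated protein, the upstream region held 53.0%, 61.2% and 67.4% in G1 and 41.0%, 30.8% and 39.2% in G2 (0.0151). In these 3 genes, too, no G2 library reached a G1 library.

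The NOL4L upstream region (chr20:32464780-32465102) held 41.6%, 44.6% and 47.1% in G1, 23.6%, 22.3% and 22.8% in Early_S, 31.3%, 31.1% and 21.5% in Late_S and 18.5%, 14.3% and 16.5% in G2 (adjusted p = 0.0109). G1 stood above every other library. PRRC2C, a large proline-rich protein, fell from 59.9% ± 11.1 in G1 to 30.2% ± 2.91 in G2 at its upstream region (0.0233), with a wide spread in G1 (47.5% to 68.7%). ITSN1, an endocytic scaffold protein, was called for its downstream member, which held 13.6% ± 0.469 in G1 and 23.3% to 27.1% on average in the other phases (0.0151).

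For the other called genes the extremes were in S phase or the calls were thin. DDX31, a DEAD-box RNA helicase, had its downstream region at 22.6% ± 6.55 in G1 and 72.3% ± 1.85 in Late_S (adjusted p = 0.0152). STAU2, a double-stranded RNA-binding protein, had its downstream region at 45.1% ± 5.35 in G1 and 74.9% ± 3.13 in Early_S (0.0354). BAIAP2, an adaptor of the actin cytoskeleton, had its downstream region at 40.5% ± 5.34 in G1 and 58.4% ± 2.88 in Late_S (0.0484). The downstream regions of RBCK1 (a subunit of the linear ubiquitin ligase complex, 0.0450) and PTPN2 (a protein tyrosine phosphatase, 0.0498) were near the threshold.

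Single libraries decided several of these calls. LACTB lost its call without G1 replicate 1 and TROAP without G2 replicate 2. SYNPO lost it without G1 replicate 2 or 3, CUL4A and ITSN1 without G1 replicate 1 or 3, NOL4L without any 1 of the 3 G1 libraries, and NLK without G1 replicate 1, G2 replicate 2 or G2 replicate 3. The remaining genes lost the call in more of the 12 fits: DDX31 in 5 (G1 replicates 1 and 3 and each Late_S library), PRRC2C in 6 (G1 replicates 1 and 3, Late_S replicate 1 and each G2 library), BAIAP2 and RBCK1 in 9, STAU2 in 10 and PTPN2 in 11. The count of called members ran from 7 to 30 over the fits that left out 1 library each.

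**Figure D2:**
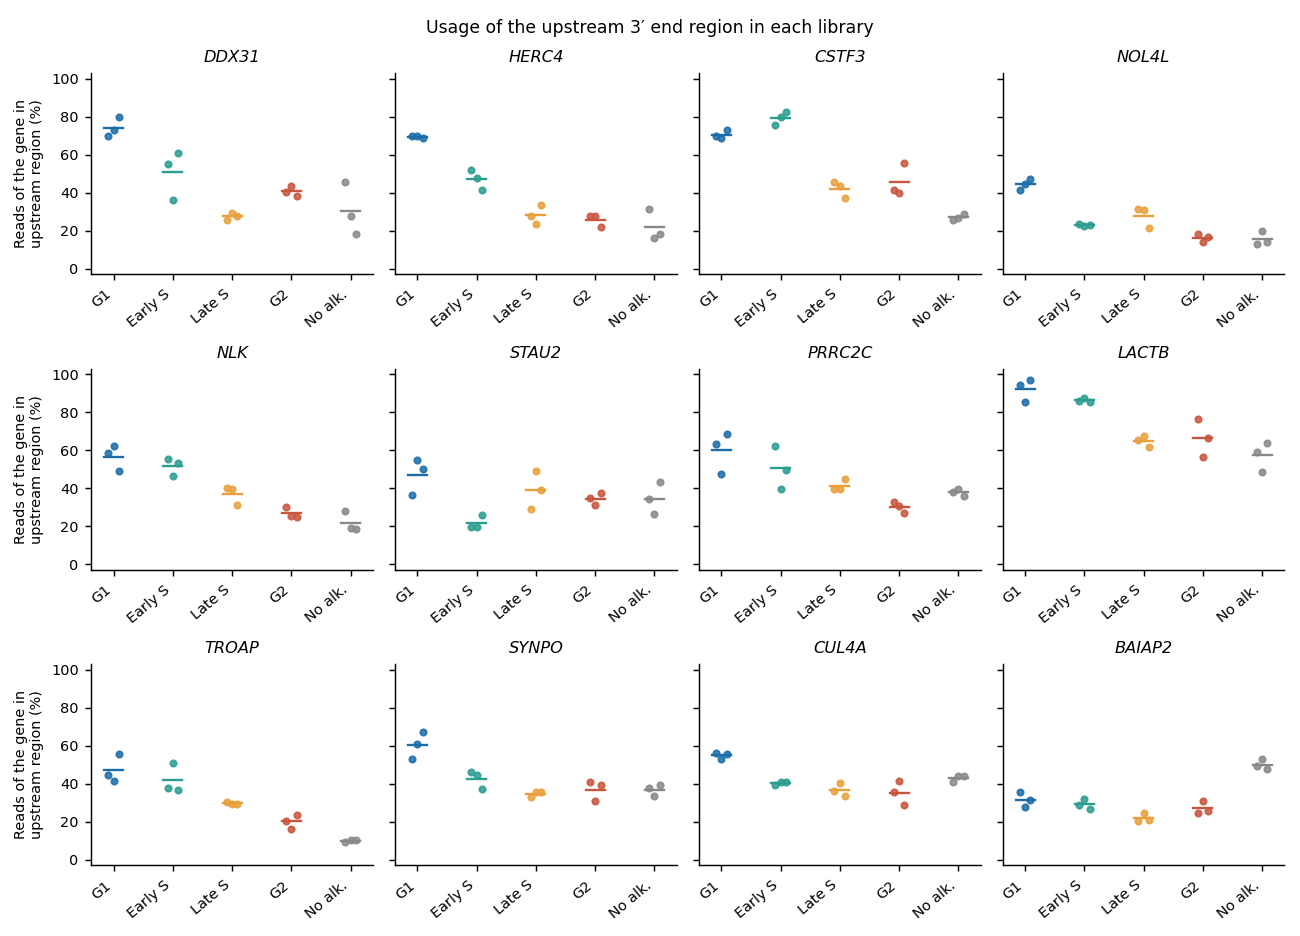
Usage (%) of the upstream member region of 12 genes named by their usage range, in each library (dots) with the group mean (bar), for G1, Early_S, Late_S, G2 and No_alkylation. HERC4 went from 69.6% in G1 to 25.9% in G2 and LACTB from 92.3% to 66.5%, and in most panels the No_alkylation libraries lay near or beyond G2.

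Between G1 and G2 directly, 38 members of 24 genes differed (2.5% of members, against 0.511% of all regions tested). Some of these members were under 20% in 1 of the phases, such as the LACTB downstream region (7.73% in G1, 33.5% in G2). The part of the choice of members in this excess was not tested. The 20 upstream regions were higher in G1 and the 18 downstream regions were lower in G1, without exception. Between G1 and Early_S, and between Late_S and G2, edgeR called 0 members and 0% of all regions, where DESeq2 called 36 and 3. Between Early_S and Late_S the 2 CSTF3 regions were the only calls (0.0189% of all regions). The block for replicate number raised the G1 to G2 count to 72 and DESeq2 gave 124. At a minimum of 100 reads in the region and in the rest, edgeR called 122 of 1149 members between G1 and G2, against 214 of 3113 regions.

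Genes called only through the G1 to G2 contrast are named after their values were seen. BICD1, an adaptor for dynein, had upstream usage of 78.8% ± 3.54 in G1 and 50.4% ± 3.87 in G2 (edgeR adjusted p = 0.0244). NUSAP1, a microtubule-binding protein of the mitotic spindle, had 35.4% ± 5.02 and 21.1% ± 0.758 (0.0182), while its summed level rose across phases from 93.0 ± 10.4 to 255 ± 5.75 CPM. MED1, a subunit of the Mediator complex, had 56.0% ± 3.72 and 42.1% ± 2.74 (0.0427). KLC1, a kinesin light chain, had 56.1% ± 7.75 and 24.5% ± 5.79 (0.0427). The histone gene HIST1H3D had 61.1% ± 1.59 and 34.8% ± 6.09 (0.0387) at regions that both ended past the RefSeq end of the gene, with a summed level of 66.6 ± 12.2 CPM in G1 and 16.3 ± 1.55 in G2.

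A small shift of the same direction ran through the pairs as a whole. The median upstream usage over the 691 pairs was 38.3% for G1 and 36.7% for Early_S, then 33.7% for Late_S and 33.5% for G2. Upstream usage was higher in G1 than in G2 in 456 pairs (66.0%) and lower in 235, with a median difference of 3.52 percentage points. The median log2 ratio change, G1 against G2, was 0.25 for upstream members and -0.22 for downstream members, beside -0.01 over all regions tested. These are counts over genes, without a test. The share of T>C reads over all regions differed between the same phases (22.3% and 10.1%), and its part in the shift was not tested.

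**Figure D3:**
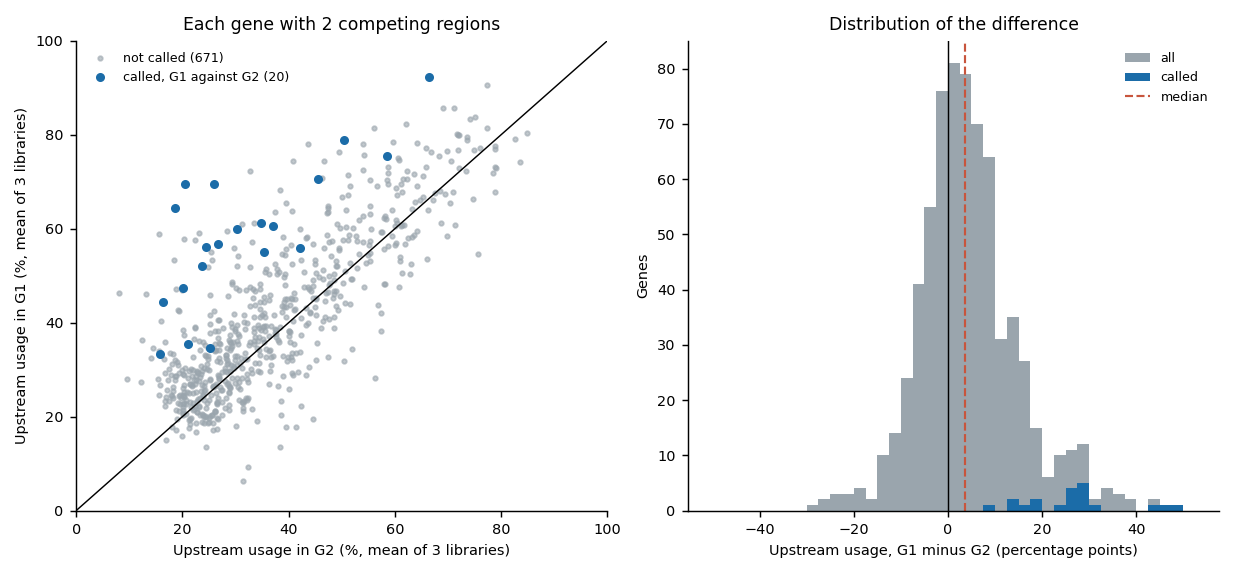
Left, mean upstream usage (%) in G1 against G2 for each of the 691 genes with 2 member regions, with the 20 called between G1 and G2 in colour. Right, histogram of the G1 minus G2 difference in percentage points; the dashed line is the median of 3.52, and 456 of 691 genes lie above 0.

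The shift can be set beside the spread of single genes. The range of a member's phase means had a median of 10.5 points (quartiles 6.81 and 17.0), and the pooled SD between libraries of a phase had a median of 6.82 points. That SD was 9.65 points in members below the median read count and 4.82 above it, so a shift of a few points could not be resolved in a single thinly read gene. LMNA, the gene of lamins A and C, chosen after its values were seen, shows what depth allows: with 29867 reads upstream and 67470 downstream, upstream usage was 28.3% ± 2.56 for G1, 34.1% ± 0.145 for Early_S, 30.9% ± 1.36 for Late_S and 30.3% ± 2.46 for G2 (edgeR adjusted p = 0.665).

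The median shift was larger in pairs whose upstream region lay further inside the gene. In 155 pairs the upstream region ended within 5000 bases of the RefSeq gene end, and in 530 it ended further inside the gene; this distance was chosen after the data were seen. The median G1 minus G2 difference was 1.66 points near the end and 4.33 points inside. Upstream usage was higher in G1 in 96 pairs near the end (61.9%) and in 358 inside (67.5%). The G1 to G2 call was made for the upstream region in 4 of the 155 pairs near the end and in 16 of the 530 inside, which are similar shares. The difference between these groups was not tested.

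Counting only T>C reads gives the usage among RNAs made in the pulse. In this nascent layer edgeR called 0 of 1281 members and 0% of the 4240 regions tested across phases. At an unadjusted p under 0.05 there were 117 members of 77 genes, against 7.29% of all regions, DESeq2 called 24 and limma 0. The T>C reads were thin: the CSTF3 upstream region had 225, 233 and 274 in G1 and 69, 29 and 211 in G2. Its nascent usage was 78.5% ± 3.23 in G1 and 62.1% ± 35.8 in G2, so that a difference of the size seen in all reads was not detectable. For HERC4 nascent upstream usage was 90.1% ± 4.61 in G1 and 65.7% ± 11.2 in G2 (edgeR adjusted p across phases 0.640). Of the members called between G1 and G2 in all reads, 37 had a nascent fit, and 26 of these kept their direction. Others went the other way, with nascent log2 changes, G1 against G2, of -0.22 (SE 0.79) for the CUL4A upstream region and -0.99 (SE 0.69) for that of RBCK1. For the upstream regions of MED1 and KLC1 the values were -0.36 (SE 0.39) and -0.15 (SE 1.23). T>C reads are part of the reads that gave the calls, so a shared direction is in part built in. The 37 members also count both regions of a gene where both were called, so they are not 37 separate observations.

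The labelled share, the percentage of a region's reads that are T>C reads, asks how much of the RNA ending there was new. It was compared between regions of the same gene, averaged over the phases. The usage test asked instead for differences between phases, so the counts of these unlike tests cannot be ranked against each other. Whether the difference in labelling varied with phase was a separate test, given further below. Of 1281 members tested, 561 in 334 genes had a labelled share unlike the rest of their gene, 43.8%, against 37.8% of the 4240 regions tested (edgeR quasi-likelihood test, averaged over the phases, adjusted p under 0.05). Members thus stood near the background of regions in general. In the 574 pairs tested the upstream region was the more labelled in 148 and the less labelled in 100, and the median size of a called difference was a log2 odds ratio of 1.49.

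DENND5B, a guanine nucleotide exchange factor for Rab proteins, had one of the largest and steadiest differences. Reads of its upstream region (chr12:31451702-31451810, 109 bases) were 85.8%, 84.4% and 79.9% labelled in G1 and 50.2%, 46.2% and 32.4% in G2. At the gene's end (chr12:31382223-31387602) they were 59.5%, 64.2% and 36.7% labelled in G1 and 11.5%, 9.84% and 1.81% in G2. In each phase every upstream library was above every downstream library (log2 odds ratio against the rest of the gene 4.18, SE 0.31, edgeR adjusted p = 2.73e-09), and in No_alkylation both were under 1%.

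Further genes had a strongly labelled upstream end. For LCORL, a transcription factor, the upstream region was 88.9% ± 7.07 labelled in G1 and 91.7% ± 7.34 in G2, against 50.9% ± 6.67 and 26.9% ± 8.50 downstream. For RECQL5, a RecQ helicase, it was 89.3% ± 7.93 in G1 and 85.2% ± 10.5 in G2, against 44.2% ± 11.8 and 4.61% ± 7.98. ZXDC, a zinc finger protein, read 90.4% ± 5.16 upstream and 47.0% ± 8.45 downstream in G1, but its upstream region also had 30.5% and 39.1% T>C reads in 2 of the 3 No_alkylation libraries. The median mean share of members without alkylation was 0.302%, and 49 members of 47 genes were over 5%. Summed over the 12 libraries the upstream regions of DENND5B, LCORL, RECQL5 and ZXDC held 734 (RECQL5) to 2426 reads (DENND5B), so single values rest on few reads.

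The reverse order was as clear in other genes. The NOL4L upstream region was 4.27%, 12.7% and 11.5% labelled in G1 and its end region 70.2%, 60.2% and 83.1% (log2 odds ratio -4.31, SE 0.59, edgeR adjusted p = 1.21e-05). In AGAP3, an Arf GTPase-activating protein, the values were 9.98% ± 8.39 upstream and 38.8% ± 9.96 downstream in G1 and 0.225% ± 0.205 and 22.6% ± 11.1 in Late_S. In BRWD1, a bromodomain protein, they were 37.7% ± 5.82 and 72.6% ± 25.7 in G1 and 0.438% ± 0.394 and 32.9% ± 9.28 in G2. CBWD1 was called for a middle region with 99.0% multimapped reads, so its value cannot be assigned to this gene. Each of these calls, those of DENND5B, LCORL, RECQL5 and ZXDC included, held in the 12 fits that left out 1 library.

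**Figure D4:**
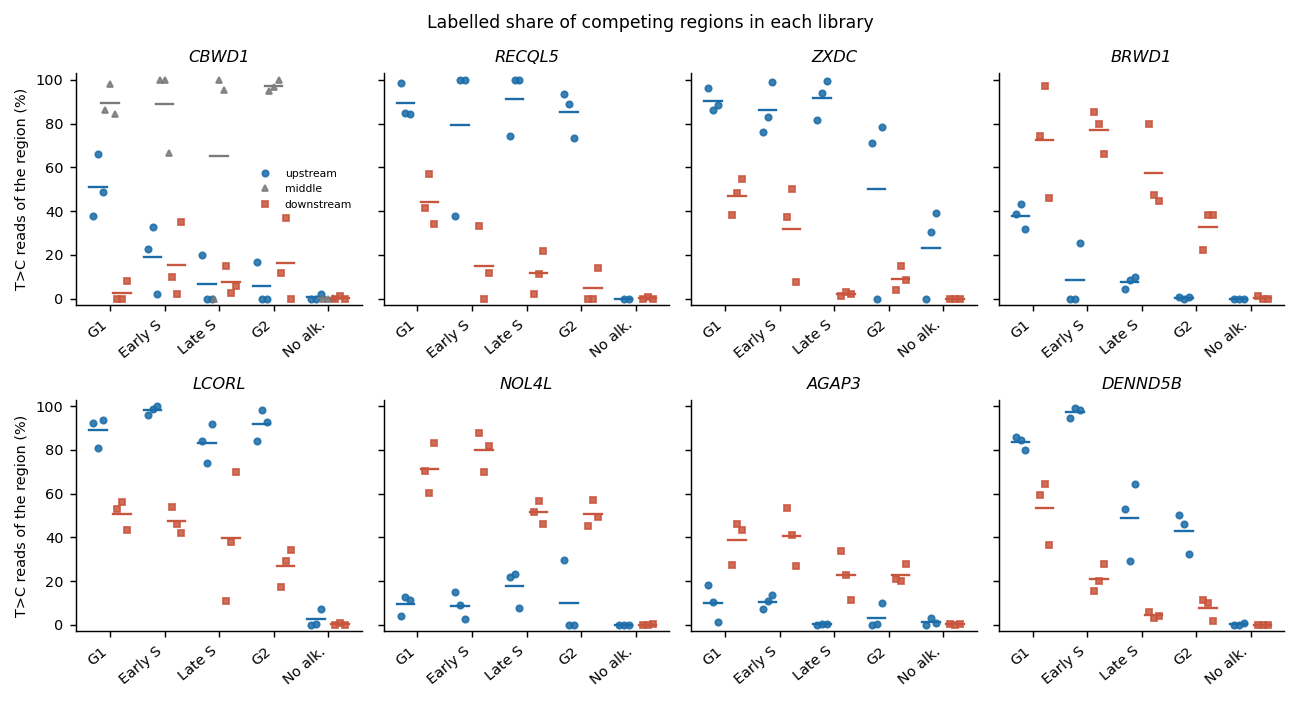
Labelled share (%) in each library for the upstream, middle and downstream member regions of 8 genes named by the size of their odds ratio, by group. In DENND5B, LCORL, RECQL5 and ZXDC the upstream region is the more labelled, in NOL4L, AGAP3 and BRWD1 the downstream region, and the No_alkylation libraries are near 0 except for the ZXDC upstream region.

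A T>C read needs a T to convert, and upstream members held fewer of them: the median T content was 26.4% of bases upstream and 31.5% downstream. Counted per covered T position (the conversion rate), 507 members of 296 genes differed from the rest of their gene, against 32.4% of all regions. Among the pairs the upstream region was then higher in 163 and lower in 59. Of the 248 pairs called by reads, 162 were called with the same sign by positions, and 20 had the opposite sign by positions, called or not. PRRC2C shows the dependence: its upstream region has 3.64% T, its labelled share was lower by reads (log2 odds ratio -2.47, SE 0.37, edgeR adjusted p = 3.07e-05) and its conversion rate did not differ past the threshold (log2 odds ratio 0.29, adjusted p = 0.696).

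Pairs with an inner upstream end leaned towards the more labelled upstream region. Inside the gene the upstream region was more labelled in 120 and less in 71 of 442 pairs tested, and within 5000 bases of the end in 27 and 28 of 126. By conversion rate the numbers were 134 and 42 inside and 29 and 15 near the end. Over all upstream and all downstream members, those of the 46 genes with 3 regions included, the median labelled share was 27.6% upstream and 28.7% downstream for G1. It was 22.1% and 19.7% for Early_S, 11.6% and 10.4% for Late_S and 11.6% and 9.49% for G2, beside 0.217% and 0.431% without alkylation. Within pairs the upstream region was the more labelled in 317 and the downstream region in 374 for G1 (median difference, upstream minus downstream, -1.62 points), and in 326 and 365 for Early_S (-0.518 points). The numbers were 374 and 315 for Late_S (0.837 points) and 371 and 319 for G2 (0.556 points). By reads the lean within pairs was thus to the downstream region in the first 2 phases and to the upstream region in the later 2. This difference between phases was not tested over the pairs. By conversion rate, the medians over all upstream and all downstream members were higher upstream in every phase. They were 3.20% and 2.92% for G1, 2.84% and 2.40% for Early_S, 1.62% and 1.19% for Late_S and 1.41% and 1.01% for G2. Leaving out the members with over 5% T>C reads in No_alkylation, in the region or in the rest of its gene, kept 493 of 1177 called.

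Whether the difference in labelling between regions itself varied with phase was tested by an interaction, and 3 members of 2 genes passed (0.234%, against 0.0943% of all regions). In ACIN1, a splicing-associated protein, the end region (chr14:23058564-23059474) was 33.1%, 36.6% and 36.4% labelled in G1 and 4.91%, 6.50% and 8.21% in G2. Its upstream region (chr14:23061298-23061622) was 28.9%, 17.1% and 23.0% in G1 and 23.1%, 20.6% and 19.0% in G2, so only the end region's groups were apart (interaction, edgeR adjusted p = 0.029). In CCDC137 the end region went from 50.6% ± 5.43 in G1 to 17.4% ± 0.992 in G2 and the upstream region from 32.4% ± 4.38 to 25.0% ± 4.56 (adjusted p = 0.0469 for both). Counted per T position, 0 members passed by edgeR (adjusted p 0.0894 for the ACIN1 end region), and leaving out 1 library ended the ACIN1 call in 7 of 12 fits and the CCDC137 call in 10. At an unadjusted p under 0.05 the read-based interaction counted 172 members, against 9.34% of all regions.

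Usage in the No_alkylation libraries differed from the mean of the 4 phases in 276 members of 157 genes, 18.2%, against 5.57% of the regions tested. The rule asked for reads in both regions of the alkylated libraries and not in these, so this count and its directions are in part set by the choice of members and nothing is read from them. Upstream members were lower there in 126 cases and higher in 13, and downstream members were higher in 120 and lower in 12. Over the pairs the median upstream usage was 29.9%, outside the range of the 4 phase medians (33.5% to 38.3%). The labels do not say which cells these libraries hold, and the part of the cells or of the missing chemical step in the difference was not tested.

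DGKE, a diacylglycerol kinase, shows how far apart the values lay. Its upstream region (chr17:56835330-56836466) held 0.477%, 0.980% and 0.915% of reads in No_alkylation, from 2, 4 and 4 reads, and a mean of 39.3% to 48.3% in the phases. ASB7, a SOCS-box protein, had 3.24% ± 1.34 in No_alkylation and 33.2% to 42.2% in the phases. EPC2, an enhancer of polycomb homologue, had 5.13% ± 6.20 and 30.1% to 56.8%. NCAPD3, a condensin II subunit, had 2.83% ± 3.57 and 12.3% to 37.6%. The NCAPD3 call was lost without No_alkylation replicate 1 or 2 and with the default dispersion trend (edgeR adjusted p = 0.0623). Those of DGKE, ASB7 and EPC2 held in these fits, which cannot take away the part of the choice of members in these differences.

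The genes with usage changes across phases sat on both sides. For CSTF3 the upstream region held 25.7%, 26.9% and 28.7% in No_alkylation, below all 12 alkylated libraries, and for TROAP 9.21%, 10.5% and 10.2%, likewise below all 12. CUL4A, at 43.0% ± 1.94, lay between G1 and the other phases. Against the general direction, the BAIAP2 upstream region was higher in No_alkylation, at 50.1% ± 2.82 against 21.9% to 31.6%, as was that of SSU72, a phosphatase of the RNA polymerase II tail named after its values were seen, at 72.5% ± 1.46 against 47.2% to 58.5%.

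**Figure D5:**
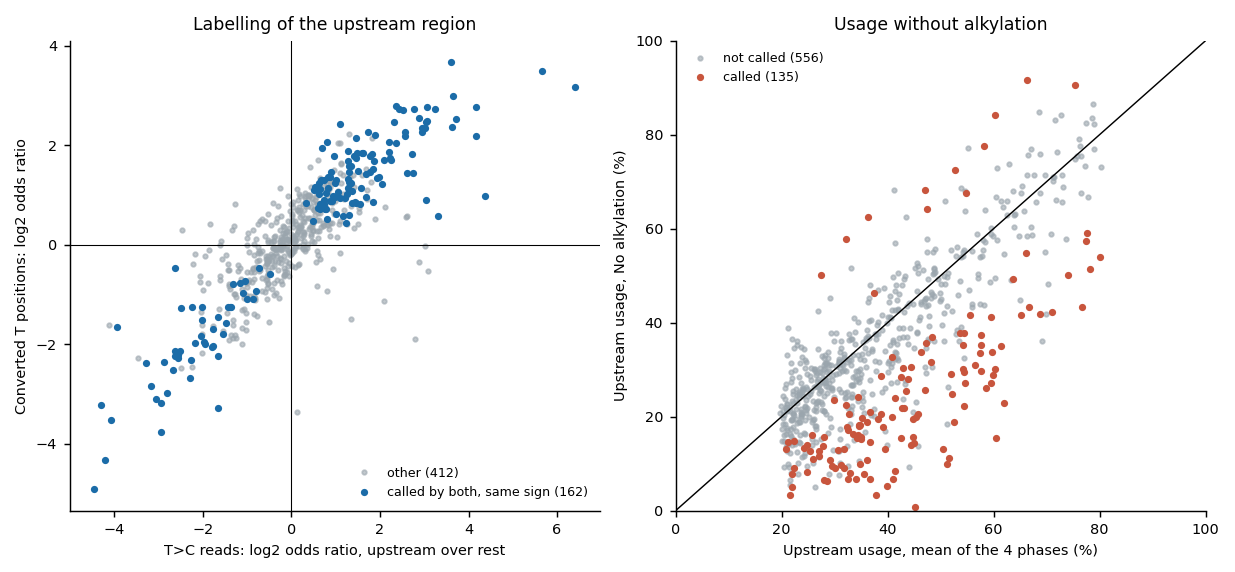
Left, log2 odds ratio of labelling of the upstream region against the rest of its gene, by T>C reads (x) and by converted T positions (y), with the 162 pairs called by both and with the same sign in colour and the other 412 in grey. Right, upstream usage (%), mean of the 4 phases (x) against No_alkylation (y); of 691 genes the 135 called are in colour and most of them lie below the diagonal.

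Genes listed for 3' end processing changed in level at a share not far above that of all genes, and by a smaller median fold. Of 32 listed 3' end processing genes, 31 were tested and 13 changed across phases, against 34.1% of all 13755 genes tested, with the highest mean in G1 for 7, in Early_S for 2, in Late_S for 2 and in G2 for 2. The median fold between the highest and lowest phase mean was 1.31 over the list, and 1.59 over all genes. SCAF4, which binds the polymerase tail and restrains early termination, fell from 28.5 ± 1.47 CPM in G1 to 10.4 ± 4.37 in Late_S (edgeR adjusted p = 0.000168). CSTF2T, a paralogue of the RNA-binding CstF subunit, fell from 52.0 ± 1.35 to 25.5 ± 5.48 (0.000336). FIP1L1, a subunit of the cleavage and polyadenylation specificity factor, was at 104 ± 15.4 in G1 and 49.0 ± 11.9 in Early_S (3.53e-07).

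Other factors rose. SRSF3, a splicing factor that also acts on poly(A) site choice, was at 337 ± 25.7 CPM in G1 and 488 ± 18.3 in Late_S (3.81e-07), and CPSF2, a subunit of the cleavage complex, at 27.0 ± 2.70 in G1 and 41.1 ± 2.12 in G2 (0.0152). NUDT21 and CPSF6, subunits of cleavage factor I, had phase means of 167 to 186 and 63.0 to 73.2 and did not pass (0.477 and 0.637). Of the member genes themselves, 325 of 737 changed in summed level across phases (44.1%, against 34.1% of all genes tested). Among them were 8 of the 15 genes with a usage call, a share not far from that of all member genes. Of 13 genes listed as known for several 3' ends, CSTF3 was the only member.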

How the data were processed

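SLAM-seq read counts of 15 libraries (5 groups of 3) were analysed. Per the file headers, the authors counted reads, T>C reads, multimapped reads, covered T positions and converted T positions per region with slamdunk 0.2.4, and the deposited counts were used with no rounding or scaling; per the submitters' processing notes the build was hg38. The deposited conversion rate is a fraction that the authors made from the same columns, and it was recomputed from the counts. The deposited CPM values were not used, and CPM in the text was computed here with TMM factors. Reads carry no molecular identifiers. For aligner settings, the sources used here give nothing.

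Usage was fitted in edgeR 4.0.16 (R 4.3.3) by quasi-likelihood with 2 columns per library (the region and the rest of its gene) and terms for library, column and column by phase, for regions with a mean of at least 10 reads in both. The labelled share used 4 columns per library (T>C and other reads of both). Tests were two-sided and adjusted by Benjamini-Hochberg over all regions tested, with calls at 0.05. Levels carry the SD over 3 libraries and log2 values an SE, the size of the log2 value over the square root of its F. The written design did not fix the dispersion trend. With edgeR's default trend the usage test called 0 members. Tested on simulated data, that fit recovered almost none of the changes, and the trend was then run along the smaller of the region and the rest, which recovered most of the larger changes and a minority of the smaller ones. The simulated spread followed each region's own mean reads, nearer to the second trend, so the simulation cannot decide between the 2 trends for the real data. This choice, the minimums of 50, 100 and 200 reads and the split at 5000 bases from the gene end were made after the data were seen. Gene levels used filterByExpr (count minimum 10, total minimum 15). Alternatives were DESeq2 1.42.0, limma 3.58.1 (0.5 added), a replicate block, other filters and leaving out each library.

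The members and lists were chosen with earlier results of these data known. Named genes were up to 12 with the widest usage range among called members with separate libraries, up to 8 by odds ratio, up to 6 by interaction p, up to 4 by the No_alkylation change, members of a list of 13 genes and up to 3 regions on each side of each threshold; the other called genes are named too, and other exceptions are marked. Gene names were matched to RefSeq (GRCh38.p14) by symbol for 710 genes and by an older symbol for 22, and 5 had no match. Same-numbered libraries' deviations in usage correlated at -0.02 to 0.04 (median 0.013), and those of other libraries of unlike phases at -0.04 to 0.04 (median -0.007). Such a correlation over many thinly read regions cannot exclude that replicate numbers pair the libraries. The main fits had no replicate block, and counts with it are given as an alternative. Some items that these rules name are not reported here.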

Additional observations from a re-analysis of the deposited data

Results flagged for a closer look

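The difference in labelled share between regions of a gene varied with phase in 3 members by a test of the interaction itself. The ACIN1 downstream region had an edgeR adjusted p of 0.029, and its labelled share ran from 35.4% ± 1.96 in G1 to 6.54% ± 1.65 in G2 while the upstream region ran from 23.0% ± 5.90 to 20.9% ± 2.08. The CCDC137 upstream and downstream regions each had an adjusted p of 0.0469. The 2 regions of CCDC137 hold most of 1 gene's reads and count as 1 observation.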

How the results depend on the processing

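Counts of called members depended on the fit. Usage across phases, 25 members, became 0 with edgeR's default dispersion trend, 119 with DESeq2, 2 with limma, 155 with no filter on low counts, and 62, 93 and 75 at minimums of 50, 100 and 200 reads (the minimums and the trend were chosen after seeing the data). G1 against G2, 38 members, became 0 with the default trend, 124 with DESeq2, 72 with the replicate block, 117 with no filter, and 111, 122 and 94 at the 3 minimums. Early_S against G1, 0 members, became 36 with DESeq2, 33 with no filter, and 1, 12 and 12 at the minimums. Late_S against Early_S, 2 members, became 0 with the default trend, 11 with DESeq2 and 12 with no filter, and G2 against Late_S, 0 members, became 3 with DESeq2 and 2 with no filter. Nascent usage, 0 members, became 24 with DESeq2, 7 with no filter, and 4 and 9 at minimums of 50 and 100. The labelled share between regions, 561 members, stayed within 1.5 times under every setting run except the minimums, which left fewer members tested (361 of 616 and 228 of 346 called). Its interaction with phase, 3 members, became 0 with the default trend, with converted T positions and with limma, 47 with no filter, and 22 and 25 at the minimums. No_alkylation against the phases, 276 members, became 123 with the default trend and 166 with limma. Where the fit gave more or fewer calls and no fewer members were tested, the cause was not tested.

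Leaving out 1 library at a time gave 7 to 30 members for usage across phases, 13 to 60 for G1 against G2, 0 to 1 for Early_S against G1, 2 for Late_S against Early_S, 0 to 2 for G2 against Late_S, 0 to 2 for nascent usage, 496 to 548 for the labelled share, 0 to 4 for its interaction with phase, 184 to 194 for No_alkylation and 267 to 319 for gene levels. Whether the replicate numbers pair the libraries was not settled. With the replicate block the counts were 31 for usage across phases, 72 for G1 against G2 and 0 for nascent usage. They were 543 for the labelled share, 2 for its interaction, 283 for No_alkylation and 349 for gene levels. Among the named genes, 387 alternative values kept their side of the threshold, 123 lost it and 0 reversed.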
